A study of Drosophila melanogaster with 4 samples.

Results

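The genes of the Notch receptor, its ligand and its E(spl) targets were examined in sorted gut stem cells of the fly Drosophila melanogaster after RNA interference against Piwi. They were the rows named N, Dl, Su(H), neur and spdo together with the E(spl) bHLH genes HLHmgamma, HLHmbeta, HLHmdelta, HLHm3 and HLHm7, 10 genes of 15495 rows. Intestinal stem cells, which renew the gut epithelium, were isolated by flow sorting, with 100 guts pooled for each library. The Piwi RNAi group and the control group, with mCherry RNAi against a foreign fluorescent protein, had 2 libraries each, and both were held at 29 °C for 7 days to express the RNAi. The source of the mCherry RNAi libraries is labelled yw and that of the Piwi RNAi libraries PiwiRNAi. The sources used here do not give the driver line, the sort gate or the age of the flies, nor whether the sorted cells include enteroblasts, the daughter cells that receive the Notch signal. Both groups share the RNAi induction and the sort.

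Notch signalling passes between cells in contact. The transmembrane ligand Delta (Dl) binds the receptor Notch (N) on a neighbour, cleavage frees the intracellular part of the receptor, and this part joins the DNA-binding protein Suppressor of Hairless, encoded by Su(H), to switch on the genes of the E(spl) complex. The E(spl) bHLH proteins are repressors that act with Groucho. In the fly midgut, stem cells carry Dl and signal to their daughters, and the strength of the signal received directs a daughter towards the absorptive enterocyte fate or leaves it free to take the secretory enteroendocrine fate.

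Levels are the authors' deposited FPKM, that is, fragments per kilobase of transcript and per unit of library depth. Values in pairs below are in the order replicate 1, replicate 2. Low FPKM values lay on a ladder of equal steps, and its spacing put the depth at about 2030000 and 2050000 fragments in the control libraries and 1590000 and 2250000 in the Piwi RNAi libraries. The targeted gene, piwi, had 0.495 and 1.94 FPKM in the controls and 0.208 and 0.442 FPKM after Piwi RNAi. It averaged under 1 FPKM and was not tested, and control replicate 1 lay close to Piwi RNAi replicate 2. These low values do not settle the extent of the knockdown. Over all 8313 tested genes, the median log2 difference of Piwi RNAi minus mCherry RNAi was 0.37. It was −0.01 under median-of-ratios scaling, so differences below are also given on that scale where the direction turns on it. Replicate 1 of the mCherry RNAi group differed from the rest. All 11 enterocyte markers were highest in it, with a summed level of 13470 FPKM against 683 to 1417 FPKM in the other libraries. Of 9 visceral muscle markers 7 were highest in it too, with a sum of 91.4 FPKM against 14.1 to 15.1 FPKM, and the troponin gene wupA was listed at 0 in the other libraries.

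Markers of gut progenitors were present in every library, with the progenitor factor esg at 239.7 and 302 FPKM in the controls and at 416 and 378 FPKM after Piwi RNAi. Of 8 such markers, 5 had both Piwi RNAi values above both control values and 1 had them below, where 51.5% and 13.0% of all tested genes did. Above were esg, Sox21a, zfh2, klu and hdc. In the controls klu had 28.5 and 34.4 FPKM, against 82.4 and 86.1 FPKM after Piwi RNAi, and did not pass (limma adjusted p = 0.0594). Corresponding values were 11.1 and 12.7 against 29.2 and 30.4 FPKM for zfh2, and 7.81 and 10.7 against 26.1 and 21.7 FPKM for hdc. The lower marker was sna, which encodes the factor Snail, with 21.6 and 15.4 FPKM against 3.96 and 9.22 FPKM. Sox100B, a transcription factor gene, overlapped with 231.7 and 272 FPKM against 228 and 236 FPKM. Of the 8, stg also overlapped, averaged under 1 FPKM and was not tested. The part of these levels in those of the Notch genes was not tested. Dl, the ligand that marks the stem cells among them, was far lower, between 3.41 and 4.49 FPKM. Markers of hemocytes and of the trachea were low, with the hemocyte gene He listed at 0 in every library, although the hemocyte factor srp reached 5.03 FPKM and the tracheal receptor gene btl 23.4 FPKM. In bulk samples, fewer cells of a type and less RNA per cell cannot be told apart.

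The E(spl) bHLH gene HLHmbeta was by far the most abundant of the 10 genes in all libraries, and Dl, spdo, Su(H) and HLHmdelta lay near the bottom. HLHmbeta was the 82nd to 89th most abundant row of a library, and HLHm3 the 197th to 257th. Below them, HLHm7, HLHmgamma and N overlapped in range, from 11.2 to 45.3 FPKM. neur lay under these, at 5.54 to 8.75 FPKM, and overlapped with spdo but not with Dl. spdo, Dl and Su(H) overlapped, between 1.72 and 8.46 FPKM. HLHmdelta was lowest, at 0.978 to 1.65 FPKM, close under the lowest Su(H) value.

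**Figure D1:**
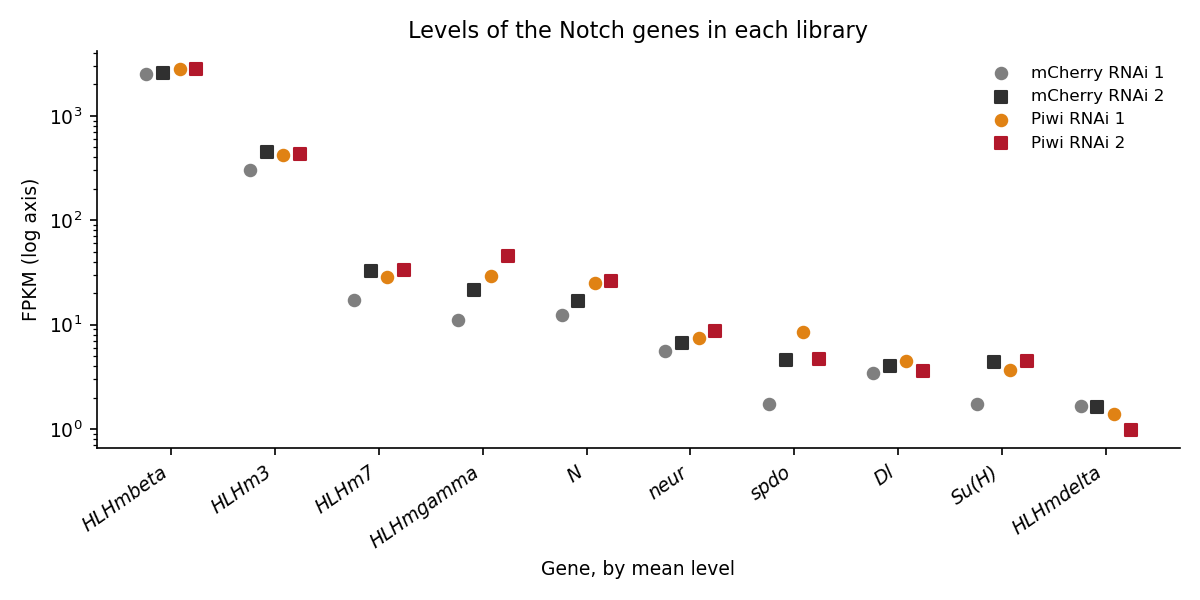
FPKM (log axis) of the 10 Notch genes, ordered by mean level, with a point for each of the 4 libraries. HLHmbeta lies at 2531 FPKM or above throughout while Dl stays between 3.41 and 4.49 FPKM, and mCherry RNAi replicate 1 is the lowest library for 9 of the 10 genes.

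None of the 10 genes passed the test between Piwi RNAi and mCherry RNAi. The test was a two-sided limma-trend fit on log2(FPKM + 1) with Benjamini-Hochberg adjustment over all 8313 tested genes and a threshold of 0.05. All 10 genes had a mean of at least 1 FPKM and were tested, with 0 higher and 0 lower calls by limma. Over all genes, 0.613% were called higher and 0.565% lower. At an unadjusted p under 0.05, 2 of the 10 genes, N and HLHmgamma, were higher and 0 lower, against 21.7% and 4.85% of all tested genes. Both Piwi RNAi libraries lay above both mCherry RNAi libraries for 5 of the 10 genes and below for 1, against 51.5% and 13.0% of all tested genes. The median log2 difference of the 10 genes was 0.37, equal to that of all tested genes to the second decimal, and it was 0.06 without mCherry RNAi replicate 1, where that of all genes was 0.27.

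N (FBgn0004647, X chromosome), the receptor, had 12.4 and 16.9 FPKM in replicates 1 and 2 of the control and 25.2 and 26.0 FPKM in those of Piwi RNAi. Both Piwi RNAi libraries lay above both control libraries, and the Piwi RNAi libraries differed little from each other. The group means were 14.6 ± 3.18 and 25.6 ± 0.547 FPKM (SD, n = 2 per group), a 1.75-fold difference. The log2 difference was 0.78 ± 0.25 (SE; 95% interval 0.15 to 1.42), and with an adjusted p = 0.160 in limma it did not pass. It was 0.40 under median-of-ratios scaling and 0.57 without mCherry RNAi replicate 1. An estimated 238 to 586 fragments per library lay behind these values, the most of the 10 genes after HLHmbeta and HLHm3.

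Dl (FBgn0000463, arm 3R), the ligand, had 3.41 and 3.98 FPKM in the controls and 4.49 and 3.55 FPKM after Piwi RNAi. The groups overlapped. The log2 difference was 0.09 ± 0.33 (95% interval −0.77 to 0.95; limma adjusted p = 0.853), with the sign reversed under median-of-ratios scaling (−0.23) and after quantile normalization (−0.03). The interval leaves room for a change in either direction. Estimated fragments ran from 24 to 42 per library, depending on the transcript assumed.

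neur (FBgn0002932, arm 3R) encodes the ubiquitin ligase Neuralized, which drives endocytosis of Dl in the signalling cell. It had 5.54 and 6.59 FPKM in the controls and 7.37 and 8.75 FPKM after Piwi RNAi. The groups did not overlap, but the log2 difference of 0.36 ± 0.27 (limma adjusted p = 0.393) lay at the median of all genes and was 0.00 under median-of-ratios scaling. neur overlaps hyx and an antisense RNA gene, CR31429, in the annotation, and reads of these genes cannot be told apart without the strand setting. hyx had 16.9 and 23.2 FPKM in the controls and 37.5 and 35.2 FPKM after Piwi RNAi.

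Su(H) (FBgn0004837, arm 2L), the DNA-binding partner of the cleaved receptor, had 1.72 and 4.40 FPKM in the controls and 3.70 and 4.46 FPKM after Piwi RNAi. Its low value was that of mCherry RNAi replicate 1, and the other 3 libraries lay close together. The log2 difference was 0.40 ± 0.46 (limma adjusted p = 0.565) and turned to −0.09 without mCherry RNAi replicate 1.

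spdo (FBgn0260440, arm 3R) encodes Sanpodo, a transmembrane protein that Numb acts on and that promotes Notch signalling in asymmetric divisions. It had 1.73 and 4.62 FPKM in the controls and 8.46 and 4.64 FPKM after Piwi RNAi. The Piwi RNAi values were both higher, but mCherry RNAi replicate 2 and Piwi RNAi replicate 2 were nearly equal. The log2 difference was 0.90 ± 0.51 (95% interval −0.42 to 2.21; limma adjusted p = 0.290), and it was 0.38 without mCherry RNAi replicate 1. These values rest on about 7 and 19 fragments against 26 and 21. spdo overlaps PH4alphaEFB on the same strand, and reads of the overlap may be assigned to either gene; PH4alphaEFB had 8.46 and 10.6 FPKM against 12.2 and 16.5 FPKM.

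HLHmbeta (FBgn0002733, E(spl)mbeta-HLH in the current annotation) had the narrowest range of the 10 genes, relative to its level. It had 2531 and 2603 FPKM in the controls and 2786 and 2827 FPKM after Piwi RNAi. The Piwi RNAi libraries lay above the control libraries by a small margin, with group means of 2567 ± 50.7 and 2806 ± 29.3 FPKM (SD, n = 2 per group). The log2 difference was 0.13 ± 0.06 (95% interval −0.03 to 0.29; limma adjusted p = 0.244), and it was −0.28 under median-of-ratios scaling, so its direction depends on the scaling. HLHmbeta alone made up 83.7% to 88.4% of the summed FPKM of the 5 E(spl) bHLH genes.

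HLHm3 (FBgn0002609) had 304 and 451 FPKM in the controls and 420 and 431 FPKM after Piwi RNAi. The groups overlapped, and mCherry RNAi replicate 1 was the low library. Its log2 difference of 0.20 ± 0.21 (limma adjusted p = 0.533) turned to −0.08 without that library and to −0.21 under median-of-ratios scaling. HLHm7 (FBgn0002633) was also lowest in mCherry RNAi replicate 1 and its groups also overlapped, with 17.1 and 32.4 FPKM in the controls and 28.8 and 33.4 FPKM after Piwi RNAi. Its log2 difference was 0.38 ± 0.35 (limma adjusted p = 0.474), −0.06 without mCherry RNAi replicate 1 and −0.01 under median-of-ratios scaling.

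HLHmgamma (FBgn0002735) had the largest difference of the 10 genes. It had 11.2 and 21.3 FPKM in the controls and 29.1 and 45.3 FPKM after Piwi RNAi, so the groups did not overlap, though both replicate pairs were spread wide. The group means were 16.3 ± 7.20 and 37.2 ± 11.5 FPKM (SD, n = 2 per group), a 2.29-fold difference. The log2 difference was 1.18 ± 0.40 (95% interval 0.14 to 2.21), and with an adjusted p = 0.169 in limma it did not pass. It kept its sign under all 14 alternative settings, between 0.74 without mCherry RNAi replicate 1 and 1.62 without mCherry RNAi replicate 2, and none brought it past the threshold. The values rest on about 18 and 35 fragments against 37 and 81.

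HLHmdelta (FBgn0002734) had 1.65 and 1.62 FPKM in the controls and 1.39 and 0.978 FPKM after Piwi RNAi. These are about 3 fragments in each control library and 2 in each Piwi RNAi library. A count of 3 has an exact 95% Poisson interval of 0.619 to 8.77 and a count of 2 one of 0.242 to 7.22, for counting error only. At this depth a fall or a small rise was therefore not detectable. It was the only one of the 10 genes with a negative log2 difference in the fit to all libraries (−0.28 ± 0.50; limma adjusted p = 0.715). The enterocyte and muscle markers given above move with the low position of mCherry RNAi replicate 1 for 9 of the 10 genes, and their part in it was not tested. Of all tested genes, 52.7% were lowest in that library.

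**Figure D2:**
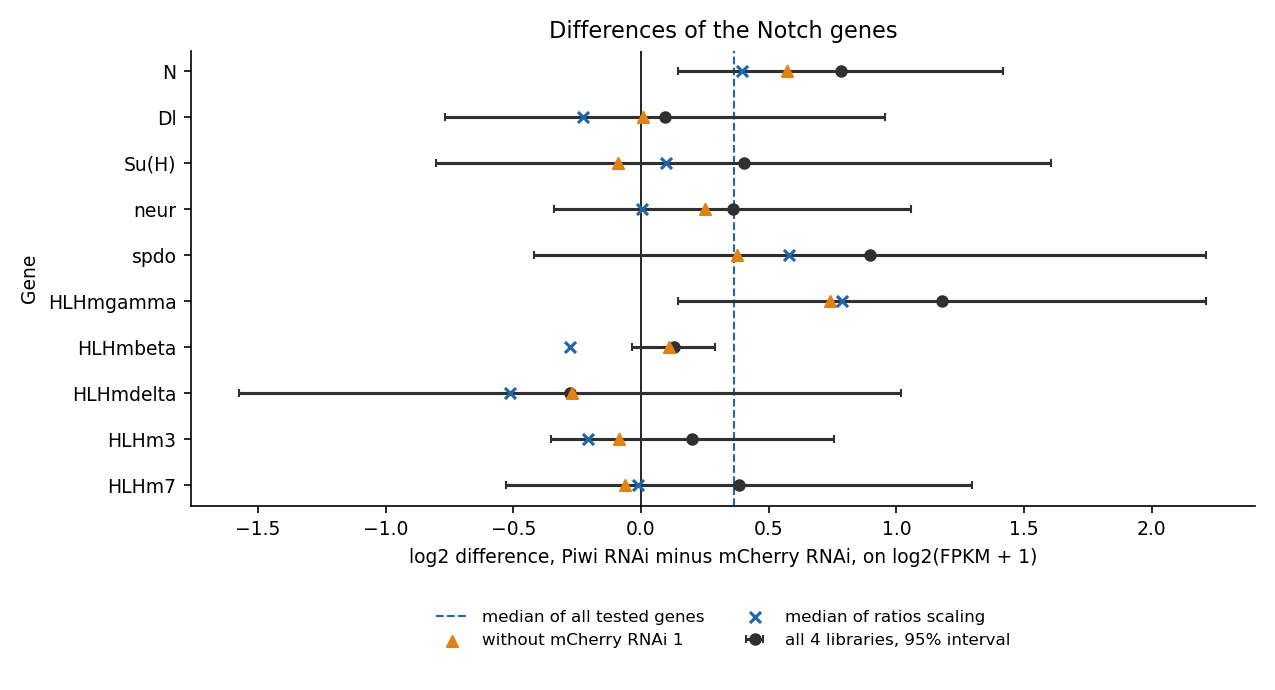
Log2 difference, Piwi RNAi minus control, of log2(FPKM + 1) for the 10 Notch genes, with 95% limma intervals (black), the value without mCherry RNAi replicate 1 (triangles) and under median-of-ratios scaling (crosses); the dashed line is the median of all tested genes, 0.37. The intervals of N and HLHmgamma lie above 0 before adjustment, and Dl, HLHmbeta, HLHm3, HLHm7 and HLHmdelta lie below 0 under median-of-ratios scaling.

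The E(spl) complex is a run of neighbouring genes on arm 3R, and levels along it ran from 0 to 2827 FPKM. Its 13 protein-coding genes, from HLHmdelta to gro, hold bHLH genes, Bearded family genes, m1 and the corepressor gene gro. The high values clustered at HLHmbeta and its next neighbour malpha, a Bearded family gene whose products act on Neuralized, which had 1394 and 1649 FPKM in the controls and 1851 and 1725 FPKM after Piwi RNAi. m4 was listed at 0 in both controls, against 1.02 and 1.43 FPKM after Piwi RNAi, about 1 and 2 fragments. HLHm5 had at most 1.63 FPKM, about 2 fragments.

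The E(spl) row, the m8 bHLH gene at the far end of the bHLH run, had 1.82 and 2.68 FPKM in the controls and 21.8 and 7.26 FPKM after Piwi RNAi. Both Piwi RNAi libraries were higher, and they differed widely from each other. Its log2 difference of 2.09 ± 0.56 (95% interval 0.65 to 3.54) had an adjusted p = 0.143 in limma and did not pass. It was 1.36 without Piwi RNAi replicate 1. Behind them are about 2 and 4 fragments against 23 and 11.

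**Figure D3:**
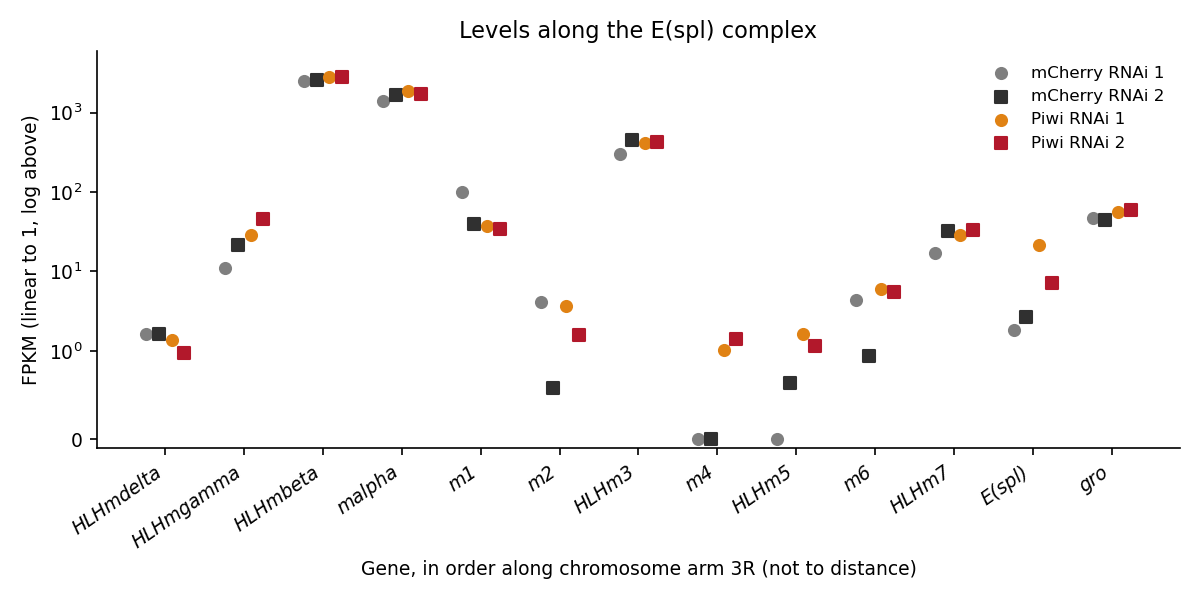
FPKM of the 13 protein-coding genes of the E(spl) complex in their order along arm 3R, with a point per library (axis linear to 1 and logarithmic above). HLHmbeta and malpha stand at 1394 FPKM or above, HLHm3 between 304 and 451 FPKM, and m4 and HLHm5 at or below 1.63 FPKM.

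Ratios between genes of the same library do not depend on the scaling between libraries, apart from the effect of the pseudocount. Relative to N, HLHmbeta had log2 ratios of 7.57 and 7.19 in the controls and 6.73 and 6.71 in Piwi RNAi, a difference of −0.65. HLHm3 relative to N had 4.51 and 4.66 against 4.0 in both libraries, a difference of −0.58. Dl relative to N had −1.60 and −1.84 against −2.26 and −2.57, a difference of −0.69. In these 3 ratios, both Piwi RNAi libraries lay below both control libraries. The same held for HLHm7 and HLHmdelta over N, so it was not particular to the 3. For Su(H) over N, mCherry RNAi replicate 1 (−2.296) and Piwi RNAi replicate 2 (−2.305) were nearly equal. The order of these values depends on the pseudocount, so its groups cannot be called separate. N, the denominator of each, had a log2 difference of 0.78, where the median of all tested genes was 0.37. The share of all tested genes that lay so relative to N was not computed.

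HLHmgamma relative to N had −0.14 and 0.32 against 0.20 and 0.78, and the groups overlapped. The ratio of neur to Dl, of RNA levels and not of proteins, had 0.57 and 0.61 against 0.61 and 1.10. In it, mCherry RNAi replicate 2 (0.6086) and Piwi RNAi replicate 1 (0.6091) were nearly equal. Their order depends on the pseudocount, so the groups cannot be called separate. With 2 libraries per group the two-sided exact permutation test over libraries cannot give a p below 0.333, the smallest p it allows. The exact test gave p = 0.333 for 8 of the 9 ratios and p = 0.667 for HLHmgamma over N, and 0.375 and 0.667 after Benjamini-Hochberg adjustment over the 9. The 7 ratios with N as denominator share its values.

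**Figure D4:**
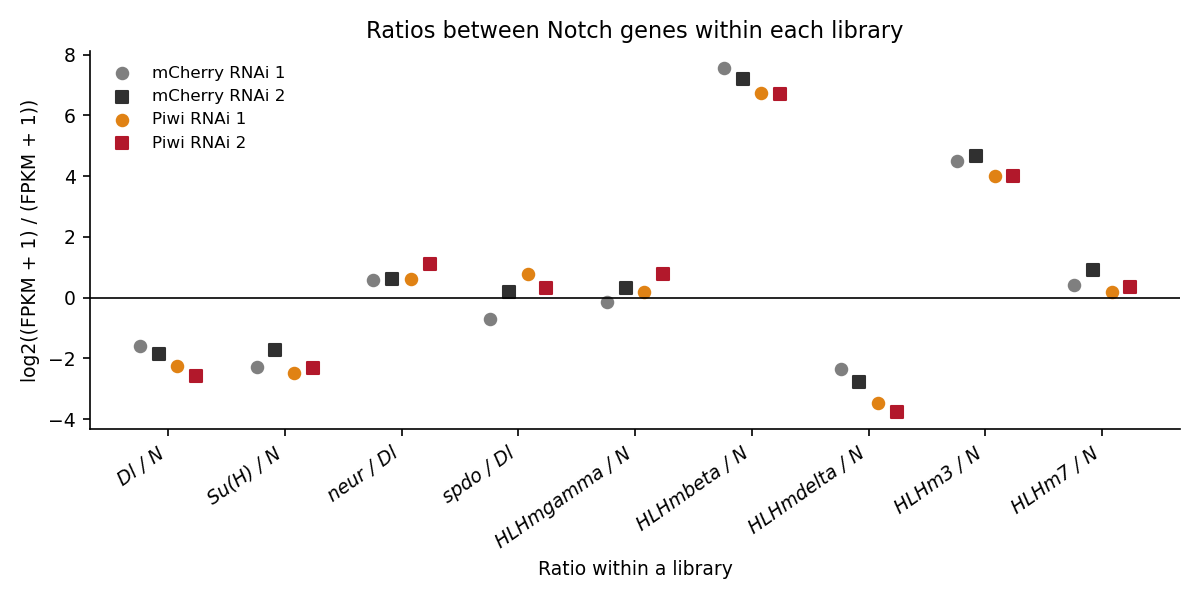
Log2 ratios of FPKM + 1 between pairs of Notch genes within each of the 4 libraries. HLHmbeta over N falls between 6.71 and 7.57, HLHm3 over N between 4.0 and 4.66, and Dl over N between −2.57 and −1.60, with both Piwi RNAi libraries at the lower end of each. Both also lie lower for HLHm7 and HLHmdelta over N, and for Su(H) over N mCherry RNAi replicate 1 and Piwi RNAi replicate 2 nearly coincide.

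The other genes of the pathway also gave 0 higher and 0 lower calls by limma. Of 40 genes listed by role, 38 had a row and 30 were tested. Of these, 28 had a positive log2 difference, where 70.0% of all tested genes did. At an unadjusted p under 0.05, 6 were higher and 0 lower, against 21.7% and 4.85% of all tested genes. Their median log2 difference was 0.53, or 0.17 above that of all tested genes, and it was 0.14 under median-of-ratios scaling. Without mCherry RNAi replicate 1 it was 0.32, where that of all tested genes was 0.27. Both Piwi RNAi libraries lay above both control libraries for 23 of the 30, where 51.5% of all tested genes did. Overlapping genes in the annotation leave the values of nct, pen-2, kuz, mam, gro, fng, numb, aux, lqf, mib1 and rumi uncertain where reads could be assigned to either gene. The same holds for l(2)gd1, Nedd4 and Tsp26A. Psn and alpha-Adaptin had no match in the annotation, so their overlaps were not checked.

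Of the receptor cleavage genes, the 5 tested all had higher values in both Piwi RNAi libraries, where 51.5% of all tested genes did. Their median log2 difference was 0.77, or 0.38 under median-of-ratios scaling. It was 0.34 without mCherry RNAi replicate 1, where that of all tested genes was 0.27. Tace of this role, under the filter, had 0.665 and 0.218 FPKM against 1.12 and 0.198 FPKM, and its groups overlapped. nct, which encodes the gamma-secretase subunit Nicastrin, had 9.51 and 18.4 FPKM against 27.0 and 25.9 FPKM (log2 difference 0.94 ± 0.35; limma adjusted p = 0.181), and its difference was 0.50 without mCherry RNAi replicate 1. pen-2, another subunit, had 1.10 and 0 FPKM against 4.17 and 3.89 FPKM (log2 difference 1.80 ± 0.57; limma adjusted p = 0.160). For its shortest transcript these are about 1 and 0 fragments against 3 and 4, and for its longest 2 and 0 against 7 and 9. The metalloprotease gene kuz, which makes the first cut after ligand binding, had 29.8 and 35.6 FPKM against 44.2 and 46.4 FPKM. Its log2 difference was 0.46, or 0.06 under median-of-ratios scaling. Tsp3A, a tetraspanin of the group that promotes the transport of this protease, had 2.03 and 4.56 FPKM against 12.3 and 9.02 FPKM (log2 difference 1.49 ± 0.41; limma adjusted p = 0.147). Tsp86D of the same group had a log2 difference of 0.26, which was −0.10 under median-of-ratios scaling and 0.01 without mCherry RNAi replicate 1.

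Among nuclear cofactors, CtBP, a corepressor, had 88.1 and 105 FPKM in the controls and 153 and 152 FPKM after Piwi RNAi (log2 difference 0.66 ± 0.17; limma adjusted p = 0.140). H, which encodes Hairless, the antagonist that binds Su(H) protein, had 3.62 and 4.32 FPKM against 7.03 and 7.23 FPKM, with a log2 difference of 0.71. mam, the coactivator Mastermind, had 8.56 and 5.04 FPKM against 11.3 and 13.8 FPKM, with a log2 difference of 0.83, or 0.49 without mCherry RNAi replicate 2. The corepressor gene gro lay at 0.34, close to the median of all genes, and at −0.06 under median-of-ratios scaling.

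Receptor glycosylation genes were mixed. O-fut1, which adds O-fucose to Notch, had 0.806 and 5.55 FPKM against 9.69 and 5.03 FPKM, so its groups overlapped. rumi, which adds O-glucose, had a log2 difference of 0.56 ± 0.35 (limma adjusted p = 0.322), and fng, the glycosyltransferase Fringe, had −0.20 (limma adjusted p = 0.554). Without mCherry RNAi replicate 1 these were 0.33 and −0.42, and without mCherry RNAi replicate 2 fng was at 0.01. Of 8 genes of receptor trafficking and turnover, alpha-Adaptin, a subunit of the AP-2 endocytic adaptor, had 4.55 and 8.65 FPKM against 17.6 and 13.5 FPKM (log2 difference 1.17 ± 0.36, or 0.77 without mCherry RNAi replicate 1; limma adjusted p = 0.159), and ago, an F-box protein gene, had a log2 difference of 0.54. numb, the inhibitor of Notch in asymmetric divisions, had 0.04, and it was −0.34 under median-of-ratios scaling and −0.25 without Piwi RNAi replicate 1.

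For ligand endocytosis, aux and lqf, which encode the clathrin uncoating factor Auxilin and the endocytic adaptor Epsin, had log2 differences of 0.54 and 0.42 with adjusted p = 0.235 and 0.372 in limma. Without mCherry RNAi replicate 1 they were 0.32 and 0.07. The second Notch ligand gene, Ser, was listed at 0 in 3 libraries and had 0.447 FPKM in mCherry RNAi replicate 1. The Bearded family genes Brd, Tom, Ocho and BobA were listed at 0 in every library. m6 of that family had 4.33 and 0.946 FPKM against 6.09 and 5.57 FPKM (log2 difference 1.08 ± 0.57; limma adjusted p = 0.266). Its difference was 1.81 without mCherry RNAi replicate 1 and 0.36 without mCherry RNAi replicate 2.

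**Figure D5:**
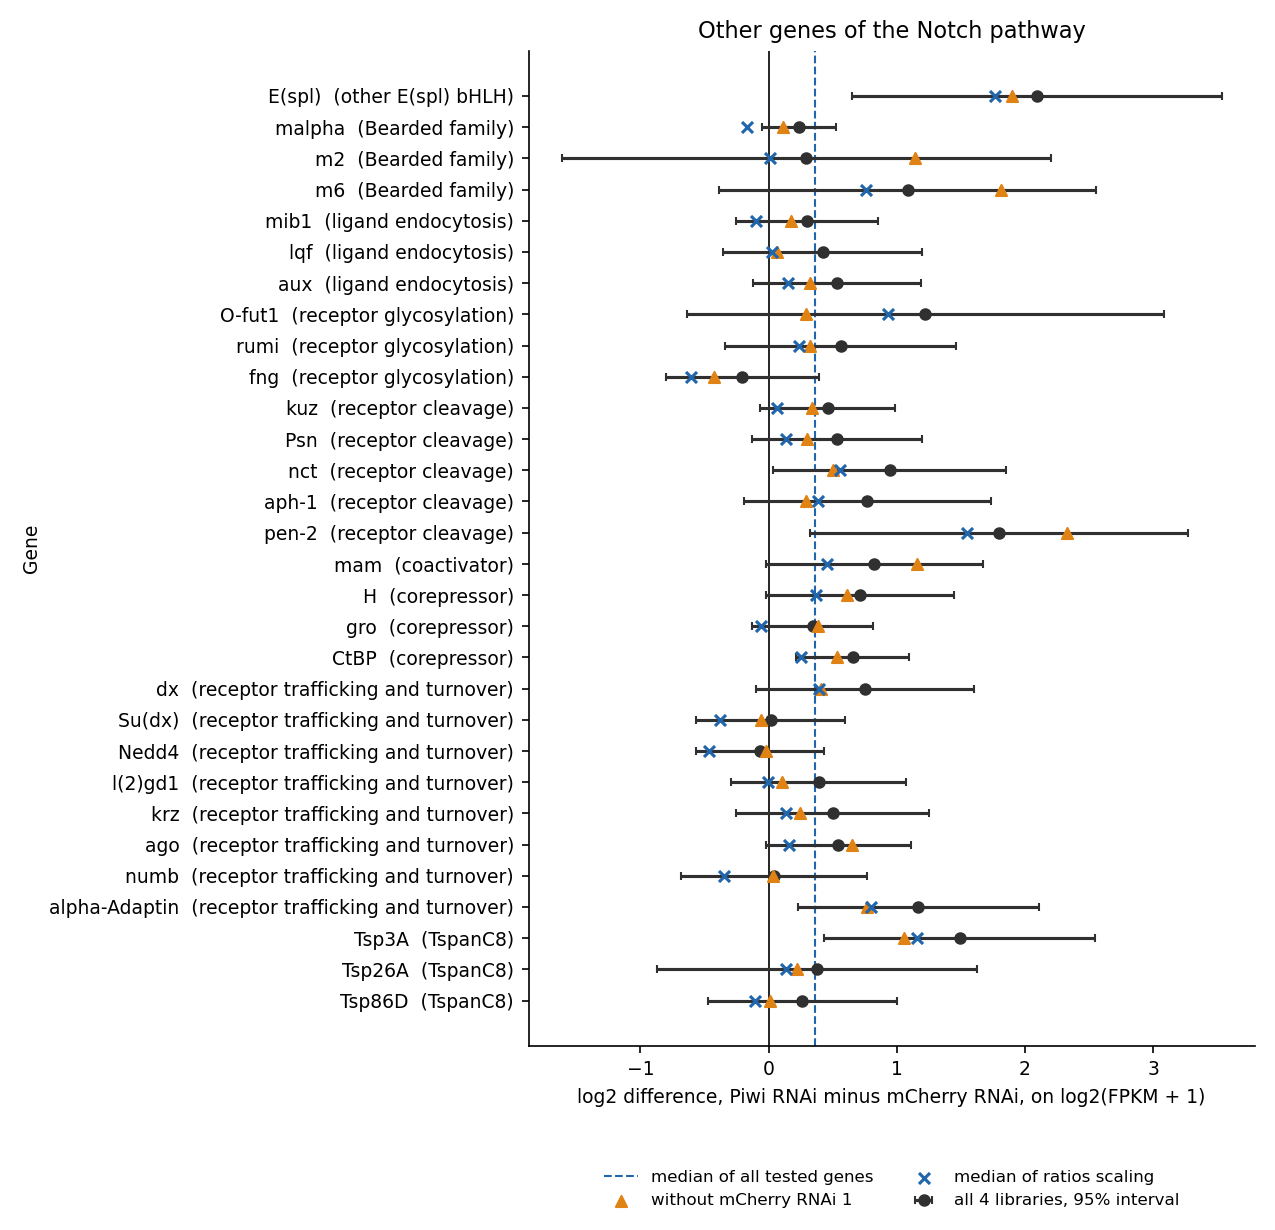
Log2 difference, Piwi RNAi minus control, of log2(FPKM + 1) for the 30 tested other genes of the Notch pathway, with 95% limma intervals (black), the value without mCherry RNAi replicate 1 (triangles) and under median-of-ratios scaling (crosses). The dashed line marks the median of all tested genes, 0.37; E(spl), pen-2 and Tsp3A lie farthest to the right, at 2.09, 1.80 and 1.49, and fng lies lowest at −0.20. The pen-2 value rests on an estimated 9 fragments or fewer in each library.

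Likeness of pattern was measured over the 4 libraries as the root mean square distance between mean-centred log2(FPKM + 1) values, among 67 tested genes of the pathway and marker lists. Nearest to N were H at 0.08, CtBP at 0.09 and dx, a regulator of Notch trafficking, at 0.10. Nearest to Dl were Su(dx) at 0.04, malpha at 0.10 and numb at 0.13. Nearest to HLHmbeta were its neighbour malpha at 0.10, mib1 at 0.11 and gro at 0.12. Of the 8313 tested genes, 250 lay as near to N as H did, 351 as near to HLHmbeta as malpha did, and 10 as near to Dl as Su(dx) did.

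Most enteroendocrine markers, the products of the fate that weak Notch signal allows, had lower values after Piwi RNAi. Both Piwi RNAi libraries lay below both control libraries for 8 of 10 such markers, where 13.0% of all tested genes lay so, with summed levels of 2819 and 5586 FPKM in the controls and 261 and 480 FPKM after Piwi RNAi. None of the 10 was listed at 0 in every library. Only CG13565, named Orcokinin in the current annotation, passed the limma test (adjusted p = 0.0313), and pros, for example, did not (limma adjusted p = 0.349). Dh31 and Syt1 averaged under 1 FPKM and were not tested, and their groups overlapped. Their part in the levels of the Notch genes was not tested.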

How the data were processed

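Per the labels' protocols, Trizol was used to extract RNA of the sorted cells and a TruSeq RNA kit to make libraries. The authors deposited FPKM values per gene and library. The submitters' processing notes name TopHat and Cufflinks, whose output the columns match per the file headers. The sources used here give no versions, genome build, annotation or strand setting. Per the labels each library is its own pool of guts, so p-values reflect variation among pools.

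Genes averaging 1 FPKM or more over the libraries were tested with limma 3.58.1 in R 4.3.3 (lmFit, eBayes with a trend, two-sided) on log2(FPKM + 1), which understates the change of low genes. Residual degrees of freedom were 2, prior ones 2.86, and the fit was tested on simulated data. Fragments were estimated from the steps of low values, using genes annotated with 1 transcript of 800 nt or longer and subtracting 120 nt from its length. Of these values 87.5% to 90.7% lay within 0.1 of a whole number. The depths and the 120 nt were chosen to make this share as large as possible. The 20% expected by chance holds for settings fixed beforehand, so the comparison is not a test of the estimate. Transcript lengths, chromosome arms, gene order and overlaps are from the Ensembl BDGP6 annotation, which may differ from the authors' build, so no coordinates are given. Intervals on fragments cover counting error only.

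The members, the gene lists and the tests were chosen with earlier results of these data known. Named were all members, per pathway role the 2 genes with the smallest p, and the nearest genes by pattern. The markers esg, CG13565, srp and btl were named as the most abundant of their lists, CG13565 in the controls only. hyx, CR31429, PH4alphaEFB, kuz, gro, numb, fng, sna, Sox100B, m1, m4, HLHm5, Ser and the Bearded genes at 0 were named after their values were seen. Alternatives were other pseudocounts (0.1 and 5), other filters, median-of-ratios and summed FPKM scaling, quantile normalization, robust or trend-free eBayes, a replicate block, and leaving out each library.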

Additional observations from a re-analysis of the deposited data

How the results depend on the processing

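Under 14 alternatives, of which scaling by summed FPKM was chosen after seeing the data, 0 of the 10 Notch genes and 0 of the other pathway genes passed the limma test; the smallest adjusted p of the 10 was 0.0753, and between 0 and 4 of them had an unadjusted p under 0.05. With the filter raised to 5 FPKM, only 6 of the 10 were tested. Of 136 values of the 10 genes, 127 kept their sign and 9 reversed. Dl reversed with quantile normalization (−0.028) and median of ratios (−0.23), and HLHmbeta (−0.28), HLHm3 (−0.21) and HLHm7 (−0.0097) with the latter. With a library left out, Dl ran from −0.041 (Piwi RNAi replicate 1 out) to 0.23, and, lowest with mCherry RNAi replicate 1 out, Su(H) ran from −0.091 to 0.90, HLHm3 from −0.085 to 0.49 and HLHm7 from −0.061 to 0.83. Of 23 other pathway genes named here, 305 of 319 values kept their sign and 14 reversed. With median of ratios these were malpha (−0.17), Tsp86D (−0.10), mib1 (−0.095), gro (−0.057), Su(dx) (−0.38) and numb (−0.34), and with quantile normalization Tsp86D (−0.12), mib1 (−0.066), Su(dx) (−0.35) and numb (−0.36). With a library left out, Su(dx) ran from −0.13 to 0.16, numb from −0.25 to 0.33 and fng from −0.42 to 0.015. The 9 ratios kept their sign where recomputed. The cause was not tested, except that scaling by the median of ratios shifts all genes by −0.37 at the median.

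Over all genes, the 51 higher and 47 lower calls became 0 and 0 with no filter, 82 and 85 with the filter at 5 FPKM, 25 and 10 with quantile normalization, 1 and 7 with median of ratios, 0 and 4 without a trend, 108 and 101 with robust eBayes, and 56 and 15 with summed FPKM scaling. Leaving out any library gave 0 and 0 in limma, where 619 to 3195 genes had an unadjusted p under 0.05. With the replicate block there were 89 higher and 105 lower calls and 0 among the 10 genes; deviations of same-numbered libraries correlated at r = 0.25 across genes, and the labels give the numbers no shared origin.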

Other observations

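m1, a gene inside the E(spl) complex that encodes a Kazal-type protein and not a bHLH or Bearded protein, had 100.2 FPKM in mCherry RNAi replicate 1, 39.9 FPKM in the other control, and 37.7 and 34.6 FPKM after Piwi RNAi. It was highest in mCherry RNAi replicate 1, the library in which 9 of the 10 Notch genes were lowest and all 11 enterocyte markers were highest.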
